A study of Mus musculus with 3 samples.

Results

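The subject here was a set of 9 genes for apolipoprotein and cholesterol handling in mouse macrophages, chosen by gene symbol: Apoe, Lpl, Abca1, Abcg1, Nr1h2, Nr1h3, Plin2, Soat1 and Srebf2. All 9 symbols were found among the 55536 annotated genes, and together they carry 72 annotated transcripts. The RNA was cytosolic RNA, depleted of ribosomal RNA, of bone-marrow-derived macrophages of C57BL/6J mice and exposed for 25 minutes to 100 ng/ml of lipid A, the part of bacterial lipopolysaccharide that activates the receptor TLR4. The labels give 3 biological replicates of this single group. Untreated cells, other times and the nuclear fraction were not analysed here, so no value below is a response to lipid A, and no test between groups was made. The 3 libraries carry the same donor record, and the labels do not say whether the cells came from separate animals, so the spread between them may be partly technical.

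Macrophages take up lipoproteins and dead cells and must store or export the cholesterol they receive. The liver X receptors, LXRα (gene Nr1h3) and LXRβ (gene Nr1h2), bind oxysterols and, as partners of retinoid X receptors, turn on the export pumps ABCA1 and ABCG1 and the secreted lipid carrier apolipoprotein E. SREBP-2 (gene Srebf2) acts in the other direction: when sterols in the endoplasmic reticulum are low, it is cleaved and turns on the genes of cholesterol synthesis. Cholesterol that is neither exported nor used is esterified by the enzyme encoded by Soat1 and kept in droplets coated by perilipin 2 (gene Plin2). Lipoprotein lipase (gene Lpl) splits the triglycerides of lipoproteins outside the cell.

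Levels are given in TPM, a unit scaled to transcript length and to the whole library, from the deposited alignment-based gene tables. Total expected counts were 53055764, 43620362 and 38623777 in replicates 1 to 3, and 3 counts, the limit that a count of 0 allows, stood for 0.0566, 0.0689 and 0.0777 CPM, which are counts scaled to the library total. These limits cover counting error only. All 8 macrophage markers were at 1 TPM or more in every library, led by Lyz2 at 4945 ± 1494 TPM (SD, n = 3). All 8 hepatocyte markers, Alb and Ttr among them, had 0 counts in every library, as had 7 of 8 adipocyte markers, Adipoq and Lep among them. The T cell, B cell and fibroblast lists, with 6 genes each, had no gene at 1 TPM in every library. Of 8 neutrophil markers, 3 reached it. Of these marker genes, Apob and Apoa1 are also counted among the apolipoproteins and Plin1 and Cidec among the droplet genes. Replicate 2 was the highest library in neutrophil markers and in nuclear RNAs, with values given beside the results that they move with.

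All 9 genes were at 1 TPM or more in every library, a level met by 41.3% of protein-coding nuclear genes. They spanned a mean level of 7.22 TPM for Nr1h3 to 2062 TPM for Apoe. Together they held 0.888, 1.20 and 0.835% of all counts in replicates 1 to 3, and Apoe alone held 29.9, 28.3 and 35.4% of that sum.

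**Figure D1:**
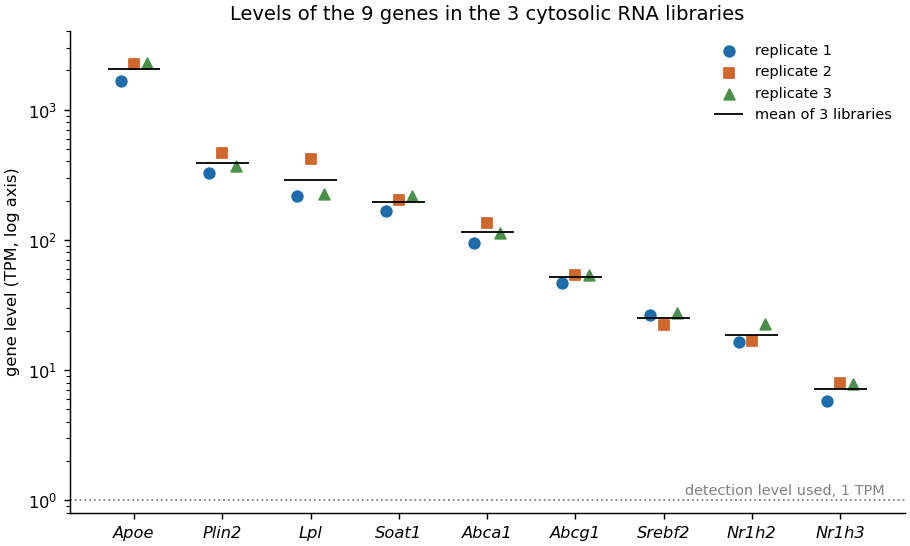
Level of each gene in the 3 libraries (points, TPM on a log axis) and the mean over the 3 libraries (lines); the dotted line marks 1 TPM. Apoe stood at 1659 to 2289 TPM, above every other gene of the set, and Nr1h3 at 5.82 to 7.94 TPM, below every other.

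The secreted carrier came first. Apoe (chr7:19696109-19699188, minus strand; all coordinates are mm10) stood at 1659, 2237 and 2289 TPM in replicates 1 to 3, with 140665, 147987 and 114292 expected counts. Its mean of 2062 ± 350 TPM (SD, n = 3) was rank 9 among protein-coding nuclear genes. Of 13 other apolipoprotein genes, Apoc2, which encodes an activator of lipoprotein lipase, was the single gene at 1 TPM or more in every library, with 8.19 ± 3.12 TPM. Apoc2 and Apoc4 share exonic sequence with the annotated gene Gm44805 on the same strand, so their counts are uncertain. The strand setting of the counting is not given, so the same holds for named genes whose exons overlap a gene on the opposite strand. These are Abcg5, Abhd5, Apoa4, Gramd1b, Hmgcs1, Malat1, Mgll, Ncoa3, Ncor1, Npc1, Pltp and Scap below. Malat1 also overlaps the annotated gene Gm27694 on the same strand. Apoc1 and Apoc4, which lie in the same gene cluster as Apoe, were at 0.55 ± 0.181 and 0.237 ± 0.16 TPM. Apoa1, Apoa4 and Apob were among 6 apolipoprotein genes with 0 counts in every library.

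Lpl (chr8:68880491-68907448, plus strand) stood at 218.3, 420.9 and 223.8 TPM, a mean of 287.7 ± 115.4 TPM (SD, n = 3) and rank 98. The level in replicate 2 was above that of the other libraries. Among 12 partners of the lipase and other lipases, 7 were at 1 TPM or more in every library. Lipa, the acid lipase that frees cholesterol from esters in lysosomes, stood at 268.4 ± 30.5 TPM. Sel1l, an adaptor of protein quality control in the endoplasmic reticulum that Lpl needs for its maturation, stood at 30.7 ± 4.6 TPM and Pnpla2, a triglyceride lipase, at 17.7 ± 4.10 TPM. Gpihbp1, whose protein anchors the lipase to capillary endothelium, had 0 counts in every library.

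The storage genes lay on either side of Lpl in level. Plin2 (chr4:86648386-86670060, minus strand) stood at 326.6, 464.6 and 369.8 TPM, with a mean of 387.0 ± 70.6 TPM and rank 69. Soat1 (chr1:156424525-156474331, minus strand) stood at 165.3, 204.2 and 219.1 TPM, with a mean of 196.2 ± 27.8 TPM and rank 159. The ranges of Plin2 and Soat1 over the libraries did not overlap by these tables, but by the alignment-free tables they did, at 83.9 to 156.5 TPM for Plin2 and 53.6 to 103.1 TPM for Soat1. Of 15 other genes for lipid droplets and esterification, 5 were at 1 TPM or more in every library and 10 were below it in all. Nceh1, a hydrolase of cholesterol esters and so the counterpart of Soat1, was the highest at 96.6 ± 6.23 TPM, followed by the droplet proteins Plin3 at 15.4 ± 2.64 TPM and Abhd5 at 10.3 ± 1.31 TPM. Plin1, the main droplet coat of adipocytes, and Cidea had 0 counts in every library. Soat2, the paralog of Soat1 and not in the rule for named genes, was added after its values were seen; it had 9, 1 and 0 counts.

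The export pumps stood below the storage genes. Abca1 (chr4:53030787-53159895, minus strand), which loads cholesterol onto lipid-poor apolipoproteins, stood at 94.8, 134.5 and 113.4 TPM, with a mean of 114.3 ± 19.9 TPM and rank 320. Abcg1 (chr17:31057675-31117988, plus strand), which moves cholesterol to HDL particles, stood at 47.0, 54.2 and 53.9 TPM, with a mean of 51.7 ± 4.10 TPM and rank 734. The level of Abca1 was above that of Abcg1 in each library, by 1.01, 1.31 and 1.07 on the log2(TPM + 0.1) scale, a mean difference of 1.13 ± 0.16 (SD, n = 3), or 2.19-fold. By the alignment-free tables this difference of levels was 0.94 ± 0.23, and the ranges over the libraries overlapped, at 24.3 to 42.2 TPM for Abca1 and 13.4 to 24.8 TPM for Abcg1. Of 13 other genes for moving sterols across or between membranes, 8 were at 1 TPM or more in every library. The lysosomal exporters Npc2 and Npc1 led with 216.6 ± 30.9 and 78.6 ± 7.88 TPM, followed by Gramd1b, a carrier from the plasma membrane to the endoplasmic reticulum, at 27.1 ± 5.46 TPM. Abcg4 and Abcg5, of the same transporter family as Abcg1, had 1, 0 and 0 counts and 0, 0 and 0 counts.

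The transcription factor genes were the lowest of the set. Srebf2 (chr15:82147181-82205379, plus strand) stood at 26.4, 22.1 and 27.4 TPM, with a mean of 25.3 ± 2.85 TPM and rank 1584. Nr1h3 (chr2:91184061-91202834, minus strand) stood at 5.82, 7.94 and 7.89 TPM, and Nr1h2 (chr7:44549616-44553951, minus strand) at 16.4, 16.7 and 22.5 TPM. The LXRα gene was thus below the LXRβ gene in every library, by a log2 difference of levels of -1.48, -1.06 and -1.50, with a mean of -1.35 ± 0.25 (SD, n = 3), a 2.55-fold difference. Means were 7.22 ± 1.21 TPM for Nr1h3 and 18.5 ± 3.43 TPM for Nr1h2, at ranks 4800 and 2164. Nr1h3 shares exonic sequence on the same strand with the annotated gene Gm13783, which was at 0.02, 0.14 and 0.1 TPM.

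In the order of levels (Apoe, Plin2, Lpl, Soat1, Abca1, Abcg1, Srebf2, Nr1h2, Nr1h3), 3 pairs of neighbours had ranges over the libraries that overlapped. These were Plin2 over Lpl, with a log2 difference of 0.48 ± 0.30, Lpl over Soat1 with 0.49 ± 0.51, and Srebf2 over Nr1h2 with 0.45 ± 0.20 (SD, n = 3 each). The other neighbours had separate ranges. With 3 paired libraries a two-sided exact permutation test cannot go below p = 0.25, so no p is given for these differences. The distance from Apoe to Nr1h3 varied least: 8.13, 8.12 and 8.16 on the log2 scale of levels, a mean of 8.14 ± 0.02 or 281.6-fold.

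Genes that work with the receptors, and PPAR nuclear receptor genes listed with them, were mostly present. Of these 12 genes, 10 were at 1 TPM or more in every library. The corepressor gene Ncor1, whose protein holds LXR target genes off in the absence of ligand, stood at 42.9 ± 6.42 TPM, and the coactivator gene Ncoa3 at 23.2 ± 4.93 TPM. The retinoid X receptor gene Rxrg and the PPAR gene Ppara had 0 counts in every library. Of 10 other genes known as LXR targets, 9 were at 1 TPM or more. The phospholipid transfer protein gene Pltp led at 234.4 ± 19.6 TPM, with Smpdl3a, a secreted phosphodiesterase, at 51.5 ± 10.8 TPM and Tmem86a, a lysoplasmalogenase, at 50.4 ± 9.28 TPM. Cyp7a1, the rate-limiting enzyme of bile acid synthesis in the liver, had 0 counts.

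On the side of SREBP-2, all 20 genes of cholesterol synthesis were at 1 TPM or more in every library, with a median of 7.99 TPM, beside 7.79 TPM over the 9084 protein-coding nuclear genes that met the same rule. The highest were Msmo1, a sterol methyl oxidase, at 39.8 ± 8.21 TPM and Hmgcs1, a synthase early in the pathway, at 32.1 ± 6.23 TPM. Of 12 genes that control SREBP or its products, 11 met the rule. Insig1, which retains the SREBP complex in the endoplasmic reticulum, stood at 29.6 ± 8.47 TPM. Mylip, a ubiquitin ligase gene and itself an LXR target, stood at 16.5 ± 1.80 TPM. Of 8 lipoprotein receptor genes, 5 met the rule. Lrp1, a receptor for apolipoprotein E remnants, led at 186.1 ± 61.8 TPM, and its chaperone Lrpap1 stood at 24.1 ± 3.73 TPM. Lrp2 had 0 counts and Vldlr 10, 7 and 9. Over the 9 lists, which hold 115 distinct genes, 76 were at 1 TPM or more in every library and 38 were below it in all.

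**Figure D2:**
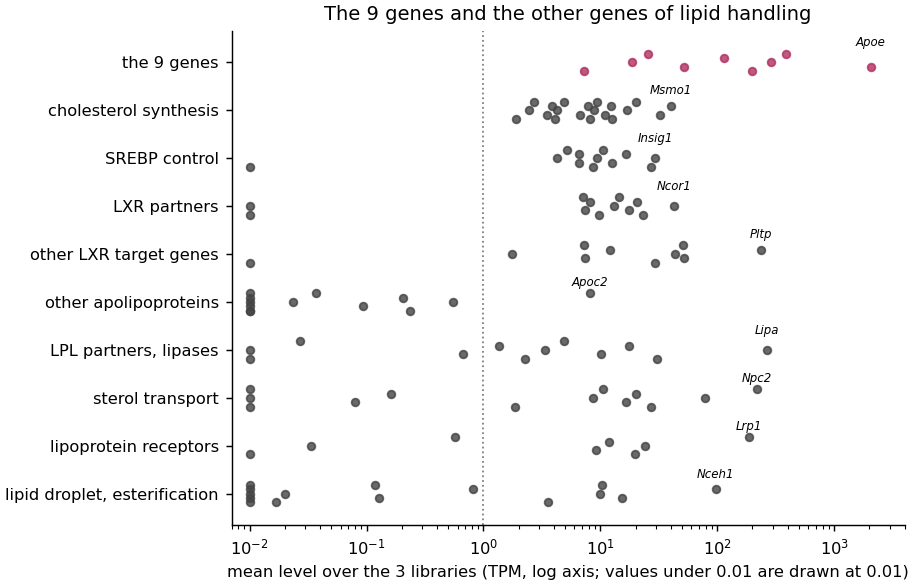
Mean level over the 3 libraries (TPM, log axis) of the 9 genes (top row) and of the genes on 9 lists of lipid handling; each point is a gene, the dotted line marks 1 TPM and the highest gene of each row is named. All 20 genes of cholesterol synthesis lie right of the line, against 1 of 13 other apolipoprotein genes and 5 of 15 droplet and esterification genes.

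An intron of Srebf2 holds the gene of the microRNA miR-33, which in mouse macrophages is known to repress Abca1 and Abcg1, so its sequence and its matches are shown here. The mature miR-33-5p (RefSeq, GRCm38.p6, chr15:82198127-82198147, plus strand) is printed 5′ to 3′ with its seed, bases 2 to 8, in capitals, and under it the stretches of the 3′ UTR of Abca1-201 (minus strand of chromosome 4) and Abcg1-201 (plus strand of chromosome 17) that hold the match to that seed, with the match CAATGCA in capitals.
miR-33-5p: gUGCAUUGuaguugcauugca
Abca1 match 1, chr4:53033801-53033821: tactgacactattCAATGCAa
Abca1 match 2, chr4:53033796-53033816: acactattcaatgCAATGCAc
Abca1 match 3, chr4:53033786-53033806: atgcaatgcacttCAATGCAa
Abcg1 match 1, chr17:31114989-31115009: gactaacgcaacgCAATGCAa
Abcg1 match 2, chr17:31114999-31115019: acgcaatgcaacgCAATGCAg

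The 3 Abca1 stretches overlap each other, as do the 2 Abcg1 stretches, and all were searched on the transcript strand of GENCODE M21 sequences. The Abca1 matches began 135, 140 and 150 bases after the stop codon in a 3′ UTR of 3156 bases, and the Abcg1 matches 717 and 727 bases after it in 3703 bases. The 3′ UTRs of the leading transcripts of the other 7 genes, of 108 to 2428 bases, held no such match. Other transcripts of these 7 genes were not searched. Among those left out was Soat1-207, which ends further downstream than the leading Soat1 transcript. It held a mean of 47.1% of alignment-based Soat1 counts, so a match in Soat1 RNA was not excluded. At 2428 bases, the length in Lpl, 12.5% of 4067 genes with a 3′ UTR as long had any match, so most had none. Of 2514 protein-coding genes with a 3′ UTR of at least 3156 bases, 15.7% had the 7 letters in its first 3156 bases and 0.159%, which is 4 genes with Abca1 counted, had them 3 times or more. For the length of the Abcg1 3′ UTR these shares were 18.5% for any match and 2.11% for as many as Abcg1 has, over 1755 genes. A match of letters is not a measured site. The hairpin row, Mir33, had 0 counts in every library, but at 69 bases the hairpin is shorter than the labelled size range of 250 to 400 (given without a unit), so these libraries do not measure it.

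Differences between the libraries were compared as log2 CPM after scaling of counts, because TPM also moves with the rest of the library: protein-coding nuclear genes held 22.7, 22.9 and 29.8% of all TPM in replicates 1 to 3. On that scale 7 of the 9 genes were highest in replicate 2, against 39.4% of 12744 genes with enough counts, and 6 of 9 were lowest in replicate 3, against 34.3%. The SD over the 3 libraries had a median of 0.206 over the 9 genes, beside 0.127 over all 12744. Over the 5647 genes that averaged at least 1000 counts it was 0.090. Without replicate 2 the medians over the 9 genes and over all 12744 were 0.158 and 0.080. In bulk RNA, fewer cells of a kind and less RNA per cell cannot be told apart.

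Lpl varied most. Relative to its own mean it lay at -0.16, 0.70 and -0.54 on the log2 CPM scale in replicates 1 to 3, an SD of 0.632, and 95.0% of the 12744 genes had a smaller SD. Of the genes that averaged at least 1000 counts, 99.4% had a smaller one. Lpl was the single member past 2-fold between any 2 libraries: replicate 3 had 0.42 times the CPM of replicate 2. At a mean count of 100 or more, 2.01% of genes passed 2-fold in that direction and 0.812% in the opposite one. For replicate 2 over replicate 1 the shares past 2-fold were 1.33% upward and 0.135% downward, and for replicate 3 over replicate 1 they were 0.338% upward and 0.174% downward. At 1.5-fold, Plin2 joined Lpl in that pair with a ratio of 0.62, against 4.70% of all genes, and Lpl was 1.80 times higher in replicate 2 than in replicate 1, against 3.72%. No member passed 1.5-fold in the other pairs and directions. There the shares of genes were 1.14% downward for replicate 2 over replicate 1, 1.58% upward and 1.09% downward for replicate 3 over replicate 1, and 3.07% upward for replicate 3 over replicate 2.

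Plin2, Abca1, Soat1 and Abcg1 had the same order of libraries as Lpl, with replicate 2 highest and replicate 3 lowest. Plin2 lay at -0.07, 0.37 and -0.30 around its mean, with an SD of 0.344, and Abca1 at -0.08, 0.33 and -0.24, with an SD of 0.294. Soat1 lay at 0.11, 0.14 and -0.24 and Abcg1 at 0.04, 0.14 and -0.18. Apoe lay at -0.15, 0.20 and -0.05 and Nr1h3 at -0.14, 0.24 and -0.09, so those 2 were highest in replicate 2 and lowest in replicate 1. Nr1h2 varied least, at 0.04, -0.09 and 0.06 with an SD of 0.082, and 29.9% of genes had a smaller SD.

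Replicate 2 was also highest in neutrophil and nuclear RNAs. All 6 neutrophil markers with enough counts were highest there, and 5 of the 6 were lowest in replicate 3. Their median differences from the gene's mean were -0.18, 0.78 and -0.88 log2 CPM, the same order as for Lpl, Plin2, Abca1, Soat1 and Abcg1. On this scale replicates 1 and 3 thus differed in these markers too. The summed level of all 8 neutrophil markers was 29.8, 52.1 and 33.7 TPM, led by S100a9 at 15.9, 27.4 and 17.4 TPM, and none of the 8 had 0 counts throughout. The 4 nuclear RNAs with enough counts were also all highest in replicate 2, and Malat1 stood at 392.0, 1143.9 and 374.0 TPM. Macrophage markers had median differences of -0.06, -0.05 and 0.05. The part of these RNAs in the differences of these 5 genes was not tested. Without replicate 2, Lpl had a mean level of 221.0 ± 3.84 TPM, Plin2 348.2 ± 30.5 TPM and Abca1 104.1 ± 13.1 TPM (SD, n = 2 each), and the order of the 9 levels was the same. On the log2 CPM scale Lpl still differed between the remaining libraries, with replicate 3 at 0.77 times the CPM of replicate 1, while Plin2 was at 0.85 and Abca1 at 0.90 times.

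Srebf2 moved otherwise. It lay at 0.23, -0.10 and -0.13 around its mean in replicates 1 to 3, and was the only member highest in replicate 1, where 26.6% of all genes were highest. All 20 genes of cholesterol synthesis were highest in replicate 1 too, and 19 of the 20 were lowest in replicate 2, against 39.7% of all genes. Their median differences were 0.37, -0.32 and -0.01, and their median SD was 0.351. Mvd, a decarboxylase of the mevalonate pathway, lay at 0.44, -0.64 and 0.19 and was picked after its values were seen. Among the highest listed genes, Msmo1 lay at 0.35, -0.33 and -0.02 and Hmgcs1 at 0.28, -0.27 and -0.01. Insig1 lay at 0.33, -0.45 and 0.12. Lrp1 ran the other way, at -0.11, 0.51 and -0.40. Under scaling by library size alone 17 of the 20 synthesis genes were highest in replicate 1, under DESeq2 size factors 20, and by alignment-free counts 19. Members highest in replicate 2 numbered 7, 7 and 6 under these settings.

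**Figure D3:**
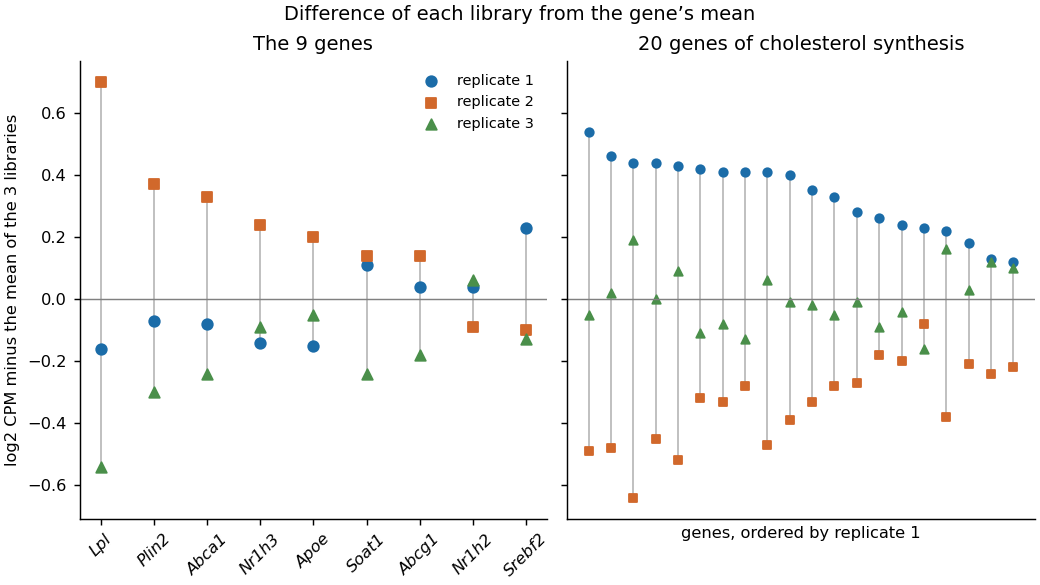
Log2 CPM of each library minus the gene's mean over the 3 libraries, for the 9 genes (left) and 20 genes of cholesterol synthesis (right); each point is a library and grey lines join the points of a gene; the genes at right are not labelled and are ordered by their value in replicate 1. In 7 of 9 genes at left the square of replicate 2 is the highest point, with Lpl at 0.70, while at right the circle of replicate 1 is the highest point in all 20 genes.

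For each member, the genes with the most similar differences over the 3 libraries were sought among 88 genes, the members included and the cell type marker lists left out, by the largest gap between their log2 CPM differences in any library. Apoe was closest to Nr1h3, with a largest gap of 0.04. The nearest to Lpl were Lrp1 at 0.18 and Lrp8, another apolipoprotein E receptor, at 0.21. Lrp8 was below 1 TPM in every library, at 0.44, 0.56 and 0.71 TPM. Among the marker genes, the neutrophil marker S100a9 lay at -0.16, 0.53 and -0.37 beside -0.16, 0.70 and -0.54 for Lpl, about as near as Lrp1. Abca1 and Plin2 were 0.06 apart, and Plin2 was closest to Mgll, a monoglyceride lipase, at 0.05. Abcg1 lay 0.01 from Pparg, a nuclear receptor gene, and 0.04 from Npc1. Soat1 lay 0.06 from each of Pparg and Abcg1. Nr1h2 lay 0.01 from Tmem86a and 0.03 from Ncoa3. Srebf2 lay 0.03 from Pmvk, a kinase of the mevalonate pathway, and 0.08 from Scap, its escort protein. Pmvk, at 0.23, -0.08 and -0.16, was lowest in replicate 3, as Srebf2 was, whereas the other synthesis genes were lowest in replicate 2. With 3 libraries these gaps are a description only.

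The transcripts of each gene were compared as a share of the gene's TPM, in the alignment-based tables and in the alignment-free tables made from the same reads. Of the 72 annotated transcripts, 42 are typed protein-coding and 21 retained intron, 64 had a count above 0 in the alignment-based tables, and 18 held 10% or more by either quantification. For all 9 genes, the same transcript led in all 3 libraries and in both quantifications. The median share of the leading transcript over the 9 genes was 81.3% by the alignment-based and 73.8% by the alignment-free tables, beside medians of 79.3 and 73.7% over 8436 protein-coding genes. Transcripts not typed protein-coding held a median of 3.90 and 7.40%, beside 3.44 and 6.11%.

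**Figure D4:**
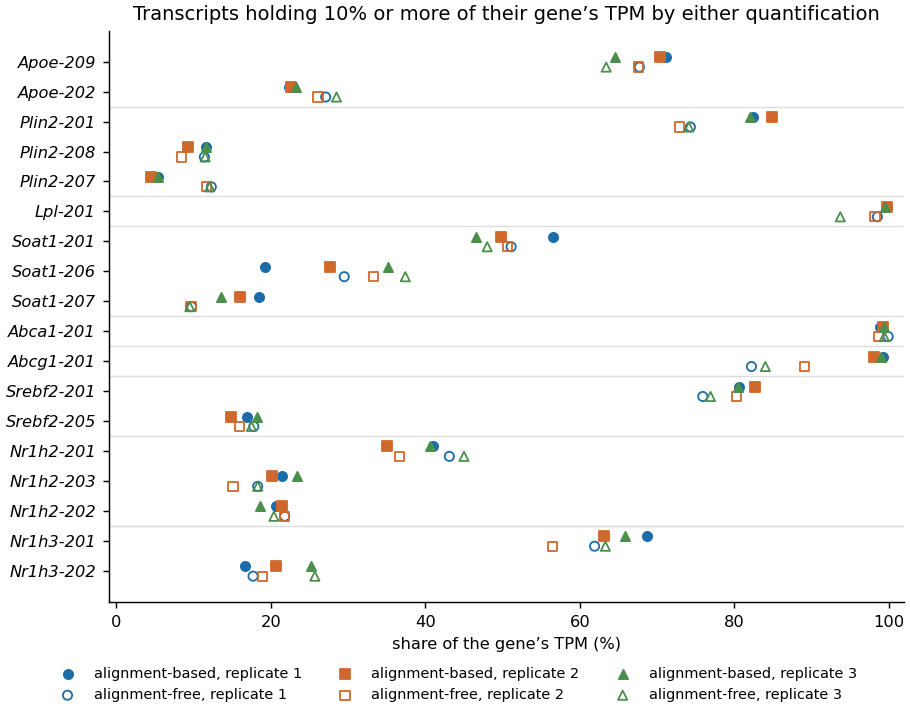
Share of the gene's TPM held by each transcript with 10% or more in the mean of either quantification; filled symbols are alignment-based and open symbols alignment-free values, with a shape and colour for each library. Lpl-201 and Abca1-201 hold nearly all of their gene's TPM, whereas Nr1h2 is divided between Nr1h2-201, Nr1h2-203 and Nr1h2-202.

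Lpl, Abca1 and Abcg1 each ran on a single transcript. Lpl-201, of 4115 bases and 10 exons, held 99.7 ± 0.114% of Lpl TPM (SD, n = 3), and 96.8% by the alignment-free tables. Abca1-201, of 10262 bases and 50 exons, held 99.1 ± 0.180% and 99.3%. Abcg1-201, of 5832 bases and 15 exons, held 98.8 ± 0.583% but 85.1 ± 3.59% by the alignment-free tables. The alignment-free tables gave 8.66% of Abcg1 TPM to Abcg1-203, of 644 bases, which had 0 counts in the alignment-based tables, and 0.782% of Abcg1 counts.

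Nr1h2 was the most divided gene. It has 18 annotated transcripts, and Nr1h2-201, Nr1h2-203 and Nr1h2-202 held 38.9 ± 3.34, 21.7 ± 1.62 and 20.2 ± 1.43% of its TPM (SD, n = 3). Nr1h2-201 and Nr1h2-202 differ in the start of exon 5, which is the long form in Nr1h2-201, with 1338 coding bases, and the short form in Nr1h2-202, with 1329. The 9 bases between them lie at chr7:44552237-44552245 on the minus strand, inside the reading frame. Both junctions are shown because they tell the forms apart, with the 9 bases of the long form in capitals.
Nr1h2 long form: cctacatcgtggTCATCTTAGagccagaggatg
Nr1h2 short form: cctacatcgtggagccagaggatg

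The other transcripts were assigned to a form by their coding bases alone, 1338 or 1329, and those of any other coding length were left out. Transcripts so assigned to the long form held 51.4, 44.0 and 49.2% of Nr1h2 TPM and those assigned to the short form 42.1, 41.6 and 42.0%. The means were 48.2 ± 3.82% for the long form and 41.9 ± 0.282% for the short form, and the ranges did not overlap. By the alignment-free tables the means were 46.7 ± 4.51 and 38.5 ± 1.62%. Retained-intron transcripts of Nr1h2 held 1.34, 6.59 and 3.78%, highest in replicate 2, the library that was also highest in nuclear RNAs; the part of those RNAs in this share was not tested.

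The main transcripts of Nr1h3 differed in their first exon. Nr1h3-201 held 65.8 ± 2.81% of Nr1h3 TPM and Nr1h3-202 held 16.7, 20.7 and 25.2%, a mean of 20.9 ± 4.27%. With Nr1h3-204 at 4.28 ± 1.44%, the 3 transcripts with the same 1335 coding bases held 91.0 ± 2.89%. Nr1h3-203, also typed protein-coding but with 1155 coding bases, held 2.18 ± 0.51%. The last 15 bases of each first exon, in capitals, are shown joined to the first 15 of the shared exon 2, which begins at base 91193696 of chromosome 2, minus strand. The first exons end at bases 91194965 and 91195033.
Nr1h3-201: CAGTTTTGGTAGAGGgacagtgtcttggta
Nr1h3-202: CAAAGAGCCTCCAGGgacagtgtcttggta

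Apoe likewise had alternative first exons. Apoe-209, of 1104 bases, held 71.2, 70.4 and 64.6% of Apoe TPM, a mean of 68.7 ± 3.61%, and is the single transcript whose first exon ends at base 19698972 of chromosome 7. The 5 transcripts whose first exon ends further upstream, at base 19699011, held 28.6, 29.5 and 35.3%, a mean of 31.2 ± 3.59%. Shown are the last 15 bases of both first exons, in capitals, and the first 15 of the shared exon 2, which begins at base 19698253 on the minus strand.
Apoe-209: CACCCAGGGACCTTGactggccaatcacaa
Apoe-206: TTTCGGAAGGAGCTGactggccaatcacaa

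Of the upstream group, Apoe-202, a processed transcript of 728 bases with no annotated coding frame, held 22.7 ± 0.480% of TPM and 14.1% of counts, and Apoe-206 held 7.95 ± 2.92% of TPM. By the alignment-free tables Apoe-202 held 27.2% of TPM. The 4 Apoe transcripts with the full frame of 933 coding bases together held 77.1 ± 0.553% by the alignment-based and 72.5 ± 1.21% by the alignment-free tables.

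Soat1 was the gene whose shares depended most on the scale. Soat1-201, of 2925 bases, held 51.0 ± 5.07% of Soat1 TPM. Soat1-206, an annotated fragment of 366 bases with 97 coding bases, held 19.3, 27.6 and 35.2%, a mean of 27.4 ± 7.96%, but only 1.66% of Soat1 counts. Soat1-207, of 8371 bases and the same 1620 coding bases as Soat1-201, held 16.0 ± 2.47% of TPM but 47.1% of counts, and 35.2% of counts by the alignment-free tables. The effective lengths by which counts are divided were 152.1 to 172.2 bases for Soat1-206, 2708 to 2729 for Soat1-201 and 8154 to 8175 for Soat1-207. The last exon of Soat1-207 runs to base 156424525 of chromosome 1, whereas Soat1-201 ends at base 156429793. Soat1-207 starts from an upstream first exon that ends at base 156474148. Its junction to exon 2, at base 156466798 inside the first exon of Soat1-201, is shown with the upstream exon in capitals.
Soat1-207: GCCCTCCGCTCGCAGgaagcttgattgata

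The 5 Soat1 transcripts with this upstream first exon held 40.9, 46.6 and 51.3% of TPM, a mean of 46.3 ± 5.20%, against 56.5, 49.8 and 46.5% for the start of Soat1-201. The ranges of these shares overlapped. Within the upstream group, the fragment Soat1-206 held 19.3, 27.6 and 35.2% of TPM, so it rose over the libraries. Soat1-207, of the same group, fell by the alignment-based tables, at 18.5, 16.0 and 13.5%. By the alignment-free tables it was nearly level, at 9.73, 9.66 and 9.52%. As a share of alignment-based counts the upstream group did not rise, at 50.3, 50.2 and 48.2%. The start of Soat1-201 held 49.5, 49.5 and 51.6% of these counts. By alignment-free counts the upstream group held 38.5, 38.8 and 40.0% and the start of Soat1-201 61.1, 60.9 and 59.9%, so these shares depend on the quantification. When only transcripts of 1000 bases or more were counted, an alternative chosen after seeing the data, the Soat1 level was 130.8 ± 5.95 TPM in place of 196.2 ± 27.8 TPM, and Apoe stood at 1588 ± 261 TPM. The order of the 9 mean levels was unchanged, but the ranges of Soat1, at 124.3 to 135.9 TPM, and Abca1, at 93.8 to 133.4 TPM, then overlapped.

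Short and incomplete annotated transcripts also entered the Srebf2 and Plin2 shares. Srebf2-201, of 5077 bases and 19 exons, held 81.3 ± 1.27% of Srebf2 TPM, and Srebf2-205, a retained-intron transcript of 1981 bases and 4 exons, held 16.9, 14.9 and 18.2%, a mean of 16.7 ± 1.65%. Srebf2-205 held 6.91% of Srebf2 counts. It was lowest in replicate 2, where nuclear RNAs were highest, as was the retained-intron share of Apoe. In Lpl, Abcg1, Nr1h2, Nr1h3 and Soat1 the alignment-based retained-intron share was highest in replicate 2, at 8.32% for Nr1h3 and 4.83% for Soat1. By the alignment-free tables that of Soat1 was highest in replicate 1, at 6.44, 4.15 and 1.52%. The part of nuclear RNAs in these shares was not tested. By the alignment-free tables Srebf2-205 held 17.1% of TPM. Plin2-201, of 1888 bases, held 83.1 ± 1.5% of Plin2 TPM and 73.8 ± 0.751% by the alignment-free tables. The processed transcript Plin2-208, of 588 bases, held 10.8 ± 1.34% of TPM and 2.80% of counts. Plin2-207, of 730 bases, held 5.07 ± 0.540% by the alignment-based and 12.1% by the alignment-free tables.

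**Figure D5:**
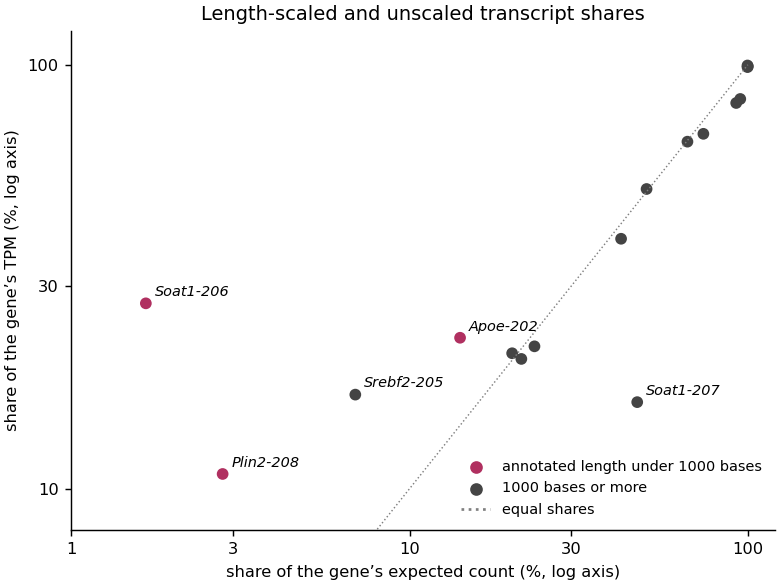
Mean share of the gene's TPM against mean share of its expected count (alignment-based, both log axes) for the transcripts with 10% or more of TPM; red points are annotated at under 1000 bases, and the dotted line marks equal shares. Soat1-206 holds 27.4% of TPM with 1.66% of counts, and Soat1-207 16.0% of TPM with 47.1% of counts.

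The gene counts of the 2 quantifications were close. The ratio of alignment-based to alignment-free counts had means between 0.900 for Nr1h3 and 0.955 for Apoe. The same ratio of TPM had means of 2.92 for Soat1 to 3.58 for Apoe, so TPM values of the 2 kinds of table are not on a common scale. The ratio also differed between libraries. Apoe stood at 750.0, 577.4 and 492.4 TPM in replicates 1 to 3 by the alignment-free tables, but at 1659, 2237 and 2289 TPM by the alignment-based ones. The order of the libraries in TPM thus depends on the table. The order of the 9 mean levels was the same by both, though not in each library. By the alignment-free tables Lpl lay below Soat1 in replicate 1, at 100.2 against 103.1 TPM, and in replicate 3, at 49.9 against 53.6 TPM. It lay above Soat1 in replicate 2, at 110.6 against 66.2 TPM.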

How the data were processed

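The authors deposited, for each library, gene and transcript tables derived from transcriptome alignments and an alignment-free transcript table, all on mm10 with GENCODE M21. Per the file headers, the alignment-based tables hold expected counts, TPM, the percent of gene TPM on each transcript and interval bounds of TPM (recorded as a score and not used), in RSEM's columns, and the alignment-free tables hold estimated counts and TPM in kallisto's columns. The deposited TPM is scaled over all targets of a table, so it also moves with the rest of the library. Tool versions and the strand setting: not given in the sources used here.

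Members and lists were chosen with earlier results of these data known. Expected counts were rounded to whole numbers, filtered with filterByExpr and scaled by TMM in edgeR 4.0.16 (R 4.3.3), giving log2 CPM with a prior count of 2. This step was tested on simulated data. Alignment-free values were summed over transcripts to genes. With a single group, every result is a description without a test. Named were all members, the 3 highest genes of each list and up to 2 below 1 TPM, the 2 genes most like each member, and transcripts at 10% or more; not all are printed, and some listed genes are not reported here. Sequences came from GENCODE M21 transcripts and RefSeq, and tables were handled in Python 3.11.15 (pandas 2.3.3). Alternatives were other pseudocounts, thresholds, scalings (DESeq2 1.42.0 size factors, library size), no count filter, protein-coding transcripts or denominators alone, the alignment-free tables and each replicate left out.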

Additional observations from a re-analysis of the deposited data

How the results depend on the processing

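The order of the 9 mean levels and the 9 genes at 1 TPM or more were the same under every alternative run for them. By the alignment-free tables the log2 difference of Abca1 and Abcg1 levels was 0.94, the median leading transcript share 73.8% and the median share of transcripts not typed protein-coding 7.40%; at 1.5-fold, members past the fold numbered 3 over the 3 pairs of libraries in place of 1. The causes were not tested, other than that the lower fold admits more genes. The Nr1h3 minus Nr1h2 difference ran from -1.25 to -1.49 over the settings tried. Listed genes detected, a count with no spread between libraries, numbered 76 at 1 TPM, 59 at 5 TPM, 78 at 0.5 TPM and 63 by the alignment-free tables. With each replicate left out, the Abca1 minus Abcg1 difference ran from 1.04 to 1.19, the median SD from 0.158 to 0.242, the leading share from 80.5 to 81.7%, the other share from 3.04 to 5.18% and the median log2 ratio of counts from -0.114 to -0.098. Of 54 alternative values of single members' TPM, 20 moved beyond 1 SD, 18 of them through the change of TPM scale. No paired analysis was possible because the series has a single group, so no groups share replicate numbers; differences between genes were taken within each library. Effective lengths of short transcripts and the absence of untreated cells limit what the levels show.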
